A study of Mus musculus with 12 samples.

Results

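DNA replication and S phase genes were followed through the epithelium of the circumvallate papilla, a taste papilla of the mouse tongue. The set is a named list of 39 genes out of the 52670 gene symbols in the deposited tables, and all 39 passed the filter on low counts that left 17432 genes for testing. The list names the genes and uses no measured value, although it was chosen with earlier results of these data known. The genes fall into 8 roles, which were grouped into entry to S phase (E2F factors, cyclin E and licensing, 15 genes) and replication proper (helicase activation, polymerases and primase, clamp and loader, nucleotide supply, and copying of chromatin and DNA methylation, 24 genes).

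All mice carried the Sox2GFP reporter, a green fluorescent protein (GFP) readout of the transcription factor Sox2, and were adults aged 11 to 12 weeks. The epithelium was dissociated and its GFP-positive cells were sorted from dim to bright as the 4 bins Low, MedLow, HiMed and High, while GFP-negative cells were thrown away and are not analysed here. Each bin has 3 polyadenylated RNA libraries, 12 in all, and each replicate was a pool of 7 to 13 mice. By its title, the study asked whether cells with high Sox2 can enter the taste lineage in culture. How the reporter was built into the genome is not given in the sources used here. In bulk RNA of this kind, fewer cells in S phase and less of an RNA per cell cannot be told apart.

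Before a cell copies its DNA, E2F factors switch on S phase genes, cyclin E drives the step out of G1, and the origin recognition complex loads the MCM helicase onto origins with the help of Cdc6 and Cdt1, which is called licensing. The loaded helicase is then turned on by Cdc45, the GINS complex and Mcm10, and polymerases copy both strands while nucleotide enzymes supply the precursors and chaperones rebuild chromatin behind the fork. Taste cells are renewed throughout life from dividing basal cells of the papilla epithelium.

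Levels are CPM, counts scaled to the size of the library with TMM factors, and a gene was called when its Benjamini-Hochberg adjusted p in edgeR's quasi-likelihood test over all 17432 genes was below 0.05. Sox2 itself rose at every step of the sort, from 70.3 ± 6.17 CPM in Low to 98 ± 1.2, 171 ± 2.64 and 373 ± 12.8 in High (SD, n = 3). Libraries held 25.7 to 55.6 M counts, of which the 39 genes took 0.0636 to 0.105%.

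Markers of the cell types that a sort of this epithelium could hold also differed between the bins, and their members did not all move one way. Of 6 epithelial markers, all above 0 in every bin, 3 fell from Low to High (Krt5, Krt14 and Trp63) and 3 rose (Epcam, Cdh1 and Krt8), and their summed TPM (transcript abundance scaled for length and library) went from 17884 to 19331 in the Low libraries to 5725 to 6458 in High. The fibroblast sum went from 548 to 603 TPM in Low to 4.13 to 13.0 in High through Dcn, while of the 3 of 6 fibroblast markers tested Dcn fell, Pdgfra rose and Col1a1 was not called, with Lum at 0 in every bin. Of 4 gland markers, summing to 265 to 1097 TPM in Low and 1.08 to 85.0 in High, 2 fell and 0 rose. Taste cell markers summed to 261 to 391 TPM in High against 41.8 to 89.8 in the other bins, but of the 5 only Entpd2 and Shh rose from Low to High, Trpm5 and Pkd2l1 fell and Pou2f3 was not called. Leukocyte markers summed to 156 to 469 TPM in High and 13.3 to 89.1 elsewhere, mostly Lyz2, the only 1 of 5 tested that rose from Low to High. Cd74 and Csf1r fell, Csf1r being at 0 in High, Ptprc and Cd68 were not called, and Cd3e was at 0 in every bin. The part of these cell types in the results for the replication genes was not tested.

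The E2F binding word is the promoter feature these genes are best known to share, so the promoters of 4 of them, chosen after the matches were seen, are shown for the roles that follow. They come from RefSeq on GRCm38.p6, run from 250 bases before to 50 after the start, and were matched by symbol, while the submitters' processing notes name mm39. Capitals mark an E2F word (TTTCCCGC, TTTCGCGC, TTTGCCGC or TTTGGCGC, on either strand).
E2f2: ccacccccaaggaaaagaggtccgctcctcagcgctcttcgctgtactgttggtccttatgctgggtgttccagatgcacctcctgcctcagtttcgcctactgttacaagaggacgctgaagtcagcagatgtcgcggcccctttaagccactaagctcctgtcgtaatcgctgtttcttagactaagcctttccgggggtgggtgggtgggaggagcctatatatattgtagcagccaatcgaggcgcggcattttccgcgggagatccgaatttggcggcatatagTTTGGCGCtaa
Cdt1: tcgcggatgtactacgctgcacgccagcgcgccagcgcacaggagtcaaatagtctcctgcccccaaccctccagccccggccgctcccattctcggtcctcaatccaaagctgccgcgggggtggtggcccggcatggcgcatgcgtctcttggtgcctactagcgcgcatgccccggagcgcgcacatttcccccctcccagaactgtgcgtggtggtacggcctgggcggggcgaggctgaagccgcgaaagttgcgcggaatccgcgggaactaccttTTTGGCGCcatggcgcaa
Mcm6: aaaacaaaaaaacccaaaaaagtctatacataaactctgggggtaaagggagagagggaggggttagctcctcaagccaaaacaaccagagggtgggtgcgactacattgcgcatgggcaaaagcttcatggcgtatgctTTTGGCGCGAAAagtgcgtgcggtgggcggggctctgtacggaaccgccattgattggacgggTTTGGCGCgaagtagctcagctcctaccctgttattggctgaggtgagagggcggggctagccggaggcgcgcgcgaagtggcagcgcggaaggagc
Pola1: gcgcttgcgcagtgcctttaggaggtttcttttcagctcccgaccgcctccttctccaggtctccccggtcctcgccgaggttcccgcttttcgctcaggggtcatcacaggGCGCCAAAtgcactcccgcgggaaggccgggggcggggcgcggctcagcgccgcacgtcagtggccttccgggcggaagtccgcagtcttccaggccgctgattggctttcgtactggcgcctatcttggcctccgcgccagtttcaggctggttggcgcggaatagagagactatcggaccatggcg
The E2f2 window lies at chr4:136172024-136172323 on the plus strand and is 1 of 2 annotated starts, with its word 39 bases downstream of the start. The Cdt1 window at chr8:122567765-122568064, plus strand, has its word 32 bases downstream. In Mcm6, chr1:128359656-128359955 on the minus strand, words lie 110, 106 and 47 bases upstream, and the words at 110 and 106 overlap. In Pola1, chrX:93632106-93632405 on the minus strand, the word lies 138 bases upstream.

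Of the 39 genes, 31 had a RefSeq promoter, and 13 of these (41.9%) held an E2F word, against 2.60% of all 27025 genes with a promoter and 4.36% of the 12100 of them that were tested here. The share was 8 of 12 among entry genes and 5 of 19 among replication genes. A CCAAT word was in 67.7% of the 31 promoters against 41.1% of all, and TTTGAA, a word of late cell cycle promoters, in 12.9% against 20.2% of all. Among the tested genes these shares were 42.6% for CCAAT and 15% for TTTGAA, which is near the 12.9%. A match describes these letters only and shows no binding.

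Across the 4 bins, most of the 39 genes had their lowest level in the brightest cells. The test of any difference called 15 of 39 genes, which is 38.5% against 42% of all genes tested, so the share called is near the background. Of the genes with a promoter, 6 of 13 called and 7 of 18 uncalled ones held the E2F word. The smallest mean was in High for 34 of 39 genes, against 36.4% of all genes, in Low for 3 (27.2%), in HiMed for 2 (17.5%) and in MedLow for 0 (18.8%). The largest mean was in MedLow for 19 genes, against 19.8% of all genes, in HiMed for 11 (16.9%), in Low for 8 (28.2%) and in High for 1, Gins4 (35.1%). Per length, the mean over the 12 libraries ran from 85.4 TPM for Pcna, 49.4 for Mcm7 and 45.9 for Rfc2 down to 2.22 for Cdc6 and 2.03 for Orc1.

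**Figure D1:**
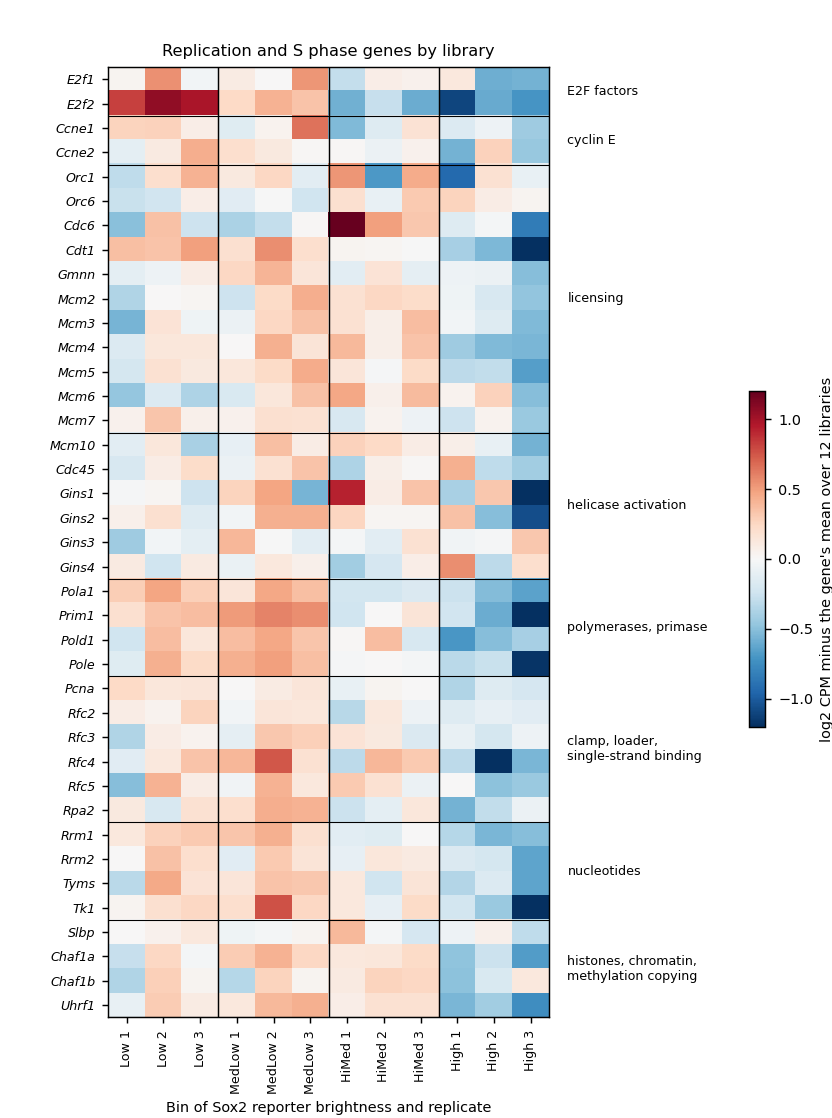
Level of each of the 39 genes (rows, by role) in each of the 12 libraries (columns, by bin and replicate), as log2 CPM minus the gene's mean over the 12 libraries, with colours ending at the limits of the bar. The High columns are mostly blue, E2f2 goes from red to blue across the bins, and High replicate 3 is the darkest column.

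Between the dimmest and the brightest cells, no gene of the set was called higher in High in the count test, although Mcm6 was without High replicate 3. Of the 39, 15 were lower and 24 were not called, where 41.2% of all genes were called, 21.2% lower and 20% higher. All 3 High libraries lay below all 3 Low libraries in 17 genes (26.8% of all genes) and above them in 0 (25.6%). The median of the 39 was -0.36 and that of all genes -0.01, and 35 of 39 values were below 0, or 25 on the TPM scale. Entry and replication proper gave close values: 5 of 15 entry genes were lower with a median of -0.36, and 10 of 24 replication genes with a median of -0.38. The number called ran from 11 without Low replicate 2 to 17 without Low replicate 1 or High replicate 1.

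High against MedLow, which shares the High libraries with that comparison, gave 18 genes lower and 0 higher, against 19.7% and 18.2% of all genes (37.9% in all). The libraries lay wholly below in 20 genes (26.4% of all genes) and wholly above in 1 (24.8%). The medians were -0.45 for the set, -0.41 for entry, -0.53 for replication and -0.01 for all genes. All 4 nucleotide enzymes and all 4 polymerase and primase genes were lower, against 4 of 11 licensing genes and 0 of 6 helicase activators. Of these calls, that of Rrm2 (-0.45) was lost without MedLow replicate 2 (adjusted p = 0.127), MedLow replicate 3 (0.0673) or High replicate 3 (0.113). That of Mcm7 (-0.35, turning to 0.11 on the TPM scale) was lost without MedLow replicate 2, MedLow replicate 3, High replicate 1 or High replicate 3 (adjusted p = 0.0926, 0.0883, 0.0848 and 0.137).

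The 3 steps between neighbouring bins, each of which shares a bin with the next, gave the most calls at the last, as over all genes. Of the 39, 2.56, 7.69 and 23.1% were called at these steps, against 6.47, 13.6 and 22.3% of all genes. The share at the last step is thus near the background. From Low to MedLow 1 gene was called, E2f2, lower, against 2.5% of all genes lower and 3.96% higher (6.47% in all). MedLow lay wholly below Low in 1 gene (13.0% of all genes) and wholly above in 4 (14.4%). The entry median was 0.02, just under 0 with library size as the only scaling or with DESeq2, and the replication median was 0.20. From MedLow to HiMed 3 genes fell, E2f2, Pola1 and Rrm1, and none rose, against 6.30% and 7.33% of all genes (13.6% in all), and without High replicate 3 the number was 5. HiMed lay wholly below MedLow in 9 genes (17% of all genes) and wholly above in 1 (15.8%). There the replication median was -0.18, and the entry median of -0.11 turned to 0.02 on the TPM scale. From HiMed to High 9 genes fell and 0 rose, against 11.7% and 10.6% of all genes (22.3% in all). The 9 were Cdc6, Cdt1, Mcm4, Mcm5, Pold1, Rrm1, Tk1, Chaf1a and Uhrf1. High lay wholly below HiMed in 17 genes (17.5% of all genes) and wholly above in 0 (17.7%), and the medians were -0.34 for entry, -0.38 for replication and -0.01 for all genes. Without 1 library the number ran from 6 to 11, and with the replicate block it was 11, E2f2 and Pole being added. HiMed against Low called Mcm6 higher and E2f2, Pola1 and Rrm1 lower, against 12.4% and 11.3% of all genes (23.7% in all), and without Low replicate 3 called 2. The call of Rrm1 there was lost without Low replicate 2 (adjusted p = 0.0612), Low replicate 3 (0.0710) or HiMed replicate 2 (0.0660). The HiMed libraries lay wholly below in 7 genes (20.1% of all genes) and wholly above in 3 (18.5%).

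Among the E2F factors, which turn on S phase genes, E2f2 fell in the count test with every increase of Sox2 brightness up to HiMed. E2f2 stood at 50.4, 59.9 and 56.2 CPM in the 3 Low libraries, 33.8, 38.1 and 36.1 in MedLow, 19.2, 23.5 and 18.9 in HiMed, then 13.3, 18.7 and 17.4 in High. No library of a bin overlapped with the next dimmer bin at any step. On the log2 scale High over Low came to -1.75 (SE 0.14, adjusted p = 8.71e-08). The steps were -0.62 from Low to MedLow (SE 0.13, adjusted p = 0.0100) and -0.81 from MedLow to HiMed (SE 0.14, adjusted p = 0.000867). From HiMed to High the value was -0.32 and was not called, although with the replicate block it was. E2f1, which shares this role, stood at 8.22, 11.8 and 7.89 CPM in Low, 8.61, 8.08 and 11.6 in MedLow, 6.59, 8.51 and 8.35 in HiMed, then 8.82, 5.37 and 5.42 in High. Its bins overlapped and it was not called (High over Low -0.51), though without High replicate 1 it was, at -0.78 (adjusted p = 0.0283). The call of E2f2 between Low and MedLow was lost without Low replicate 2 (adjusted p = 0.0517) and without MedLow replicate 1 (adjusted p = 0.0555). On the TPM scale neither step of E2f2 up to HiMed kept its call. The values there were -0.34 from Low to MedLow (limma adjusted p = 0.672) and -0.53 from MedLow to HiMed (0.28). The fall of E2f2 from Low to High kept its call on that scale (limma adjusted p = 0.0041).

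Cyclin E, which with Cdk2 drives the step from G1 into S, was called in no comparison. Ccne1 stood at 6.4, 6.45 and 5.63 CPM in Low, 4.81, 5.49 and 8.4 in MedLow, 3.67, 4.79 and 6.01 in HiMed, then 4.75, 5.10 and 3.97 in High. Ccne2 stood at 4.87, 5.69 and 7.14 in Low, 6.07, 5.71 and 5.32 in MedLow, 5.33, 5.03 and 5.45 in HiMed, then 3.53, 6.38 and 3.85 in High. Only Ccne1 between Low and High had bins that did not overlap. On the log2 scale, High over Low was -0.42 for Ccne1 and -0.36 for Ccne2, and on the TPM scale that of Ccne1 turned to 0.28.

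Of the 11 licensing genes 4 fell between HiMed and High, Cdc6, Cdt1, Mcm4 and Mcm5, against 11.7% of all genes. None fell between MedLow and HiMed, where only 6.30% of all genes did. The largest mean was in HiMed for 7 of the 11, Orc1, Orc6, Cdc6, Mcm2, Mcm3, Mcm4 and Mcm6 (16.9% of all genes). The smallest was in High for 9 (36.4%). Mcm4, a subunit of the ring helicase, stood at 39.1, 48.2 and 48.5 CPM in Low, 44.3, 59.1 and 49.0 in MedLow, 57.5, 46.3 and 55.9 in HiMed, then 32.7, 30.5 and 30.0 in High. The 3 High libraries lay below all 9 others, and Mcm4 fell by 0.78 on the log2 scale from HiMed to High (SE 0.12, adjusted p = 0.000345) and by 0.54 from Low to High (SE 0.12, adjusted p = 0.00240). Mcm5, another subunit of the ring, stood at 40.4, 53.1 and 51.0 CPM in Low, 51.6, 54.8 and 63.9 in MedLow, 52.0, 46.5 and 55.2 in HiMed, then 37.7, 38.3 and 29.7 in High. The High libraries again lay below the 9 others. It fell by 0.54 from HiMed to High (SE 0.13, adjusted p = 0.00675). Its fall of 0.45 from Low to High was lost without Low replicate 2 (adjusted p = 0.0579) and without High replicate 3 (adjusted p = 0.0536).

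Cdt1, the loader that brings the MCM ring to origins, fell to High from every other bin. It stood at 21.6, 21.3 and 23.7 CPM in Low, 19.3, 24.8 and 19.4 in MedLow, 17.2, 17.1 and 16.7 in HiMed, then 12.7, 11.6 and 6.95 in High. Low and MedLow overlapped, and both HiMed and High lay below them without overlap, although HiMed was not called against Low (-0.39, adjusted p = 0.171) or MedLow (-0.32, adjusted p = 0.334). Cdt1 fell by 1.09 from Low to High (SE 0.19, adjusted p = 0.000266) and by 0.71 from HiMed to High (SE 0.19, adjusted p = 0.0147). Gmnn, whose protein geminin binds and blocks Cdt1, was called nowhere, and the ratio of Cdt1 to Gmnn TPM went from 1.14 ± 0.181 in Low to 0.951 ± 0.0218, 0.824 ± 0.0699 and 0.675 ± 0.0887 in High (SD, n = 3).

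Cdc6 and Mcm6, given here because their values were seen to be highest in HiMed, had 1 call each. Cdc6, the ATPase that loads MCM with Cdt1, stood at 2.73, 4.96 and 3.27 CPM in Low, 2.98, 3.17 and 3.92 in MedLow, 9.30, 5.47 and 4.87 in HiMed, then 3.49, 3.81 and 2.15 in High. HiMed replicate 1 was far above the rest, and the fall of 1.05 from HiMed to High (SE 0.35, adjusted p = 0.0431) was lost without it (-0.72, adjusted p = 0.197). It was kept without Low replicate 1, Low replicate 2, HiMed replicate 3 or High replicate 2, and the 8 other omissions gave adjusted p of 0.0565 to 0.197. Mcm6 stood at 32.8, 40.2 and 34.8 CPM in Low, 39.7, 49.7 and 57.4 in MedLow, 62.1, 47.0 and 58.6 in HiMed, then 46.5, 54.6 and 31.7 in High. In the count test it was the 1 gene of the 39 called higher in any comparison. It rose by 0.64 from Low to HiMed (SE 0.19, adjusted p = 0.0269). That call was lost without Low replicate 1 (adjusted p = 0.103), Low replicate 3 (0.0854), HiMed replicate 1 (0.0967) or HiMed replicate 3 (0.0840), and with no filter on low counts (0.0525). From Low to High Mcm6 was not called (0.30, adjusted p = 0.237), but without High replicate 3 it was called higher (0.49, adjusted p = 0.0227). Mcm7 fell by 0.36 from Low to High (adjusted p = 0.0262), a call lost without Low replicate 2, High replicate 1 or High replicate 3 (adjusted p = 0.141, 0.0735 and 0.118) or with library size as the only scaling (0.0654). Orc1, Orc6, Gmnn, Mcm2 and Mcm3 were not called in any comparison of the count test. On the TPM scale Orc6 was called higher from Low to High (0.39, limma adjusted p = 0.0471).

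**Figure D2:**
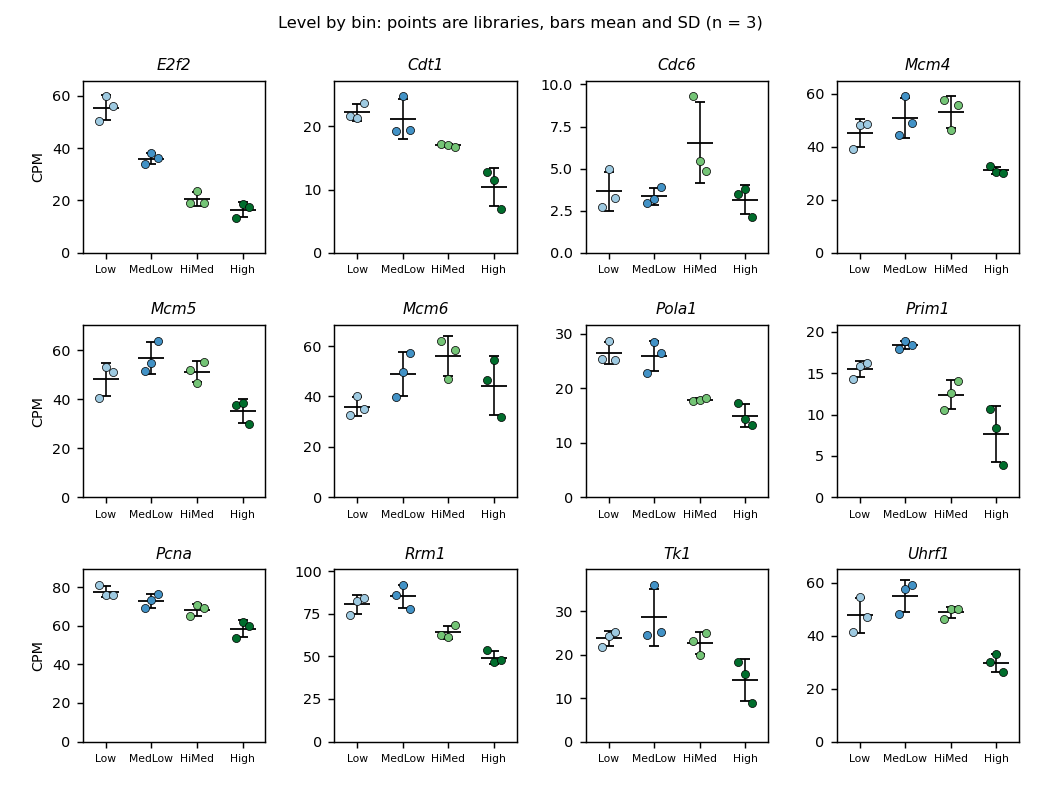
Level in CPM of 12 of the genes by bin, with 1 point per library and the mean and SD of the 3 libraries as bars. E2f2 steps down from bin to bin, Mcm4, Mcm6 and Cdc6 have their largest mean in HiMed, and Pola1 and Rrm1 are lower in HiMed and High than in both dimmer bins.

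None of the 6 helicase activators was called in any comparison or in the test of any difference, which called 42% of all genes. Mcm10, which helps the helicase start to unwind, stood at 7.39, 8.88 and 6.15 CPM in Low, 7.53, 10.4 and 8.58 in MedLow, 9.74, 9.55 and 8.55 in HiMed, then 8.44, 7.58 and 5.42 in High. Gins2, of the 4-part GINS complex, stood at 7.82, 8.55 and 6.72 in Low, 7.33, 10.1 and 10.1 in MedLow, 8.98, 7.61 and 7.64 in HiMed, then 9.54, 5.26 and 3.57 in High. Gins1 stood at 2.87, 2.94 and 2.44 in Low, 3.5, 4.04 and 1.95 in MedLow, 5.54, 3.09 and 3.69 in HiMed, then 2.21, 3.64 and 1.2 in High. High overlapped with every other bin in Gins1 and Gins2, and in Mcm10 lay below HiMed alone. Gins2 was called from Low to High without High replicate 1 (-0.80, adjusted p = 0.0245). The median of the 6 from Low to High was -0.08, which turned to 0.21 on the TPM scale.

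All 4 polymerase and primase genes fell in the count test from Low to High (21.2% of all genes) and from MedLow to High (19.7%). Pola1, the catalytic subunit that starts each new strand together with primase, stood at 25.4, 28.7 and 25.2 CPM in Low, 22.9, 28.4 and 26.5 in MedLow, 17.7, 17.8 and 18.2 in HiMed, then 17.2, 14.4 and 13.2 in High. The dimmer pair of bins and the brighter pair did not overlap, and Pola1 fell by 0.53 from MedLow to HiMed (SE 0.13, adjusted p = 0.0150). It fell by 0.82 from Low to High (SE 0.14, adjusted p = 0.000146). Prim1, the primase subunit, stood at 14.4, 15.9 and 16.2 CPM in Low, 18, 19 and 18.5 in MedLow, 10.6, 12.6 and 14 in HiMed, then 10.7, 8.32 and 3.95 in High. Every MedLow library lay above all others, and Prim1 fell by 1.27 from MedLow to High (SE 0.26, adjusted p = 0.00117). Pold1, the lagging strand polymerase, stood at 21.5, 33.1 and 27.9 in Low, 33.0, 35.2 and 32.1 in MedLow, 25.7, 32.9 and 22.3 in HiMed, then 15.7, 17.9 and 19.3 in High. High lay below every other bin, with a fall of 0.92 from MedLow (SE 0.17, adjusted p = 0.000377) and of 0.61 from HiMed (SE 0.17, adjusted p = 0.0151). Pole, the leading strand polymerase, fell by 0.72 from Low and by 0.96 from MedLow to High. On the TPM scale only Prim1 kept its call from Low to High. Pola1, Pold1 and Pole had limma adjusted p of 0.141, 0.188 and 0.62. From MedLow to High Prim1 and Pold1 kept theirs on that scale, and Pola1 (0.196) and Pole (0.133) did not. The fall of Pola1 from MedLow to HiMed was lost without MedLow replicate 2 (adjusted p = 0.0889) or 3 (0.0513), and that of Pold1 from HiMed to High without HiMed replicate 2 (0.0869) or High replicate 1 (0.0609).

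In the sliding clamp, its loader and single-strand binding, 1 of 6 genes fell from Low to High (21.2% of all genes) and 3 from MedLow to High (19.7%). Pcna, the clamp that holds polymerases on DNA and the most abundant of the 39 per length (85.4 TPM over the 12 libraries), stood at 81.2, 75.9 and 76.2 CPM in Low, 69.2, 73.7 and 76.4 in MedLow, 65.0, 70.8 and 69.2 in HiMed, then 53.8, 62.1 and 59.9 in High. Only High lay below all other bins, and Pcna fell by 0.41 from Low (SE 0.08, adjusted p = 0.000729) and by 0.32 from MedLow (SE 0.08, adjusted p = 0.00526). Rfc4, of the clamp loader, stood at 4.85, 5.85 and 6.77 CPM in Low, 7.05, 8.98 and 6.08 in MedLow, 4.28, 7.06 and 6.63 in HiMed, then 4.28, 2.30 and 3.65 in High. High lay below Low and MedLow and overlapped with HiMed. Rfc4 fell by 1.11 from MedLow to High (SE 0.30, adjusted p = 0.00797), and its call of any difference (adjusted p = 0.0402) was lost with the replicate block (0.0594). It was kept without Low replicate 1, MedLow replicate 3, HiMed replicate 1 or High replicate 1, and the 8 other omissions gave 0.0541 to 0.154. Rpa2, which coats single-stranded DNA, stood at 9.25, 7.46 and 9.68 in Low, 9.80, 11.5 and 11.4 in MedLow, 7.10, 7.85 and 9.38 in HiMed, then 5.72, 6.95 and 8.13 in High. The MedLow libraries lay above those of every other bin, and Low, HiMed and High overlapped. Rpa2 fell by 0.65 from MedLow to High (SE 0.20, adjusted p = 0.0192), a call lost without MedLow replicate 2, MedLow replicate 3 or High replicate 1 (adjusted p = 0.0700, 0.0645 and 0.0767). Rfc2, Rfc3 and Rfc5 of the loader were not called anywhere.

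Of the 4 nucleotide enzymes 3 fell from Low to High (21.2% of all genes) and all from MedLow to High (19.7%). Rrm1 also fell at both steps between MedLow and High. Rrm1, the large subunit of ribonucleotide reductase, stood at 74.3, 82.8 and 84.5 CPM in Low, 85.9, 91.9 and 78.1 in MedLow, 62.5, 61.7 and 68.5 in HiMed, then 53.6, 46.5 and 47.7 in High. HiMed lay below both dimmer bins and High below HiMed, with falls of 0.41 from MedLow to HiMed (SE 0.09, adjusted p = 0.00664) and 0.38 from HiMed to High (SE 0.09, adjusted p = 0.00631). Tk1, the thymidine kinase of S phase, stood at 21.7, 24.3 and 25.1 CPM in Low, 24.4, 36.0 and 25.2 in MedLow, 23.1, 19.8 and 24.9 in HiMed, then 18.2, 15.5 and 8.83 in High. MedLow replicate 2 and High replicate 3 were the extremes, and Tk1 fell by 1.01 from MedLow to High (SE 0.22, adjusted p = 0.00228) and by 0.74 from Low to High, the latter not called without Low replicate 3 (adjusted p = 0.0506). Rrm2, the small reductase subunit made in S phase, stood at 31.1, 39.6 and 35.7 in Low, 28.3, 38.5 and 34.5 in MedLow, 29.1, 34.0 and 33.5 in HiMed, then 27.5, 26.9 and 20 in High. The High libraries lay below the 9 others. Rrm2 fell by 0.52 from Low to High (SE 0.15, adjusted p = 0.0107), a call lost without Low replicate 2 (adjusted p = 0.0561) or High replicate 3 (0.0524). Its call of any difference was kept without replicate 1 of any bin, and the 8 other omissions gave adjusted p of 0.0544 to 0.193. Tyms, which makes thymidylate, fell by 0.64 from MedLow to High (adjusted p = 0.0175) and lost that call without MedLow replicate 2, MedLow replicate 3 or High replicate 3 (adjusted p = 0.0560, 0.0512 and 0.0739). The fall of Tk1 from HiMed to High (-0.68, adjusted p = 0.0427) was kept without High replicate 1, MedLow replicate 1 or MedLow replicate 2, and the 9 other omissions gave adjusted p of 0.0521 to 0.132. On the TPM scale Rrm1 kept its calls from Low and MedLow to High, and Tk1 that from MedLow to High. The falls of Rrm1 from MedLow to HiMed (limma adjusted p = 0.155) and from HiMed to High (0.129) were not called there. Nor were those to High of Rrm2 (0.13 from Low, 0.372 from MedLow), Tyms (0.317 from MedLow) and Tk1 (0.0556 from Low, 0.0991 from HiMed).

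Of the genes that copy chromatin and DNA methylation, Uhrf1 and Chaf1a fell in the count test to High from every other bin. They were called at no other step. Uhrf1, which brings the maintenance methyltransferase to newly copied DNA, stood at 41.5, 54.6 and 47.3 CPM in Low, 48.2, 57.7 and 59.2 in MedLow, 46.5, 50.1 and 49.9 in HiMed, then 30.1, 33.1 and 26.3 in High. Low, MedLow and HiMed overlapped, and all 3 High libraries lay below them. The falls to High were 0.68 from Low (SE 0.12, adjusted p = 0.000271), 0.88 from MedLow (SE 0.12, adjusted p = 2.76e-05) and 0.71 from HiMed (SE 0.12, adjusted p = 0.000518). On the TPM scale the fall of Uhrf1 from HiMed kept its call (limma adjusted p = 0.0227). Those from Low (0.205) and MedLow (0.0929) did not. Chaf1a, of the histone chaperone CAF-1, stood at 23.3, 33.7 and 27.9 CPM in Low, 34.8, 37.7 and 33.7 in MedLow, 31.0, 31.0 and 33.2 in HiMed, then 20.2, 23.6 and 17.8 in High. High overlapped with Low and lay below MedLow and HiMed. Chaf1a fell by 0.63 from HiMed to High (SE 0.14, adjusted p = 0.00410), while its fall of 0.46 from Low was lost without Low replicate 2 (adjusted p = 0.1) or High replicate 3 (0.0672) and turned to 0.23 on the TPM scale. The falls of Chaf1a from MedLow and from HiMed to High were not called on that scale either (limma adjusted p = 0.468 and 0.615). Chaf1b, its partner, stood at 7.77, 12.2 and 10.2 in Low, 7.89, 12.1 and 10.2 in MedLow, 10.8, 12.1 and 11.9 in HiMed, then 7.11, 8.79 and 11.0 in High. Its bins overlapped, and neither Chaf1b nor Slbp, which binds histone messages, was called.

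**Figure D3:**
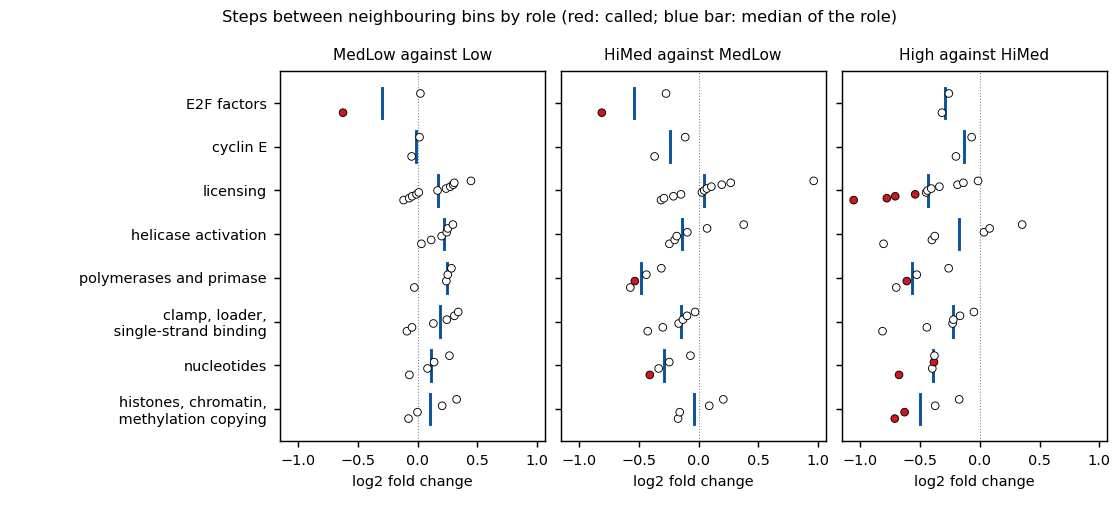
Log2 fold change of each gene (points, red where called) by role at the 3 steps between neighbouring bins, with the median of each role as a blue bar. From MedLow to HiMed the licensing median is 0.05 and that of polymerases and primase -0.49, and from HiMed to High the median of every role is below 0, that of helicase activation turning to 0.18 on the TPM scale.

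By the median over genes, entry stood lower than replication in the 6 dimmer libraries and higher in 5 of the 6 brighter ones. The median of the entry genes minus that of the replication genes, each gene taken relative to its own mean, was -0.12, -0.01 and -0.06 in Low and -0.08, -0.18 and -0.02 in MedLow. It was 0.15, -0.01 and 0.14 in HiMed, then 0.08, 0.21 and 0.02 in High. HiMed replicate 2 was the exception among the brighter libraries, and values near 0 occurred in every bin. The mean over genes did not split the bins in this way. It put entry above replication in Low replicates 2 (0.22 against 0.19) and 3 (0.15 against 0.11) and MedLow replicate 3 (0.23 against 0.20). It put entry below in HiMed replicate 2 (-0.003 against 0.051), High replicate 1 (-0.27 against -0.20) and High replicate 3 (-0.532 against -0.530). The entry median exceeded the replication median by 0.11 from Low to HiMed, and by 0.20 on the TPM scale. With Mcm2 to Mcm7 counted as replication genes the same difference was -0.19, so its sign rests on where the MCM ring is placed. No test was made of a score over the genes.

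**Figure D4:**
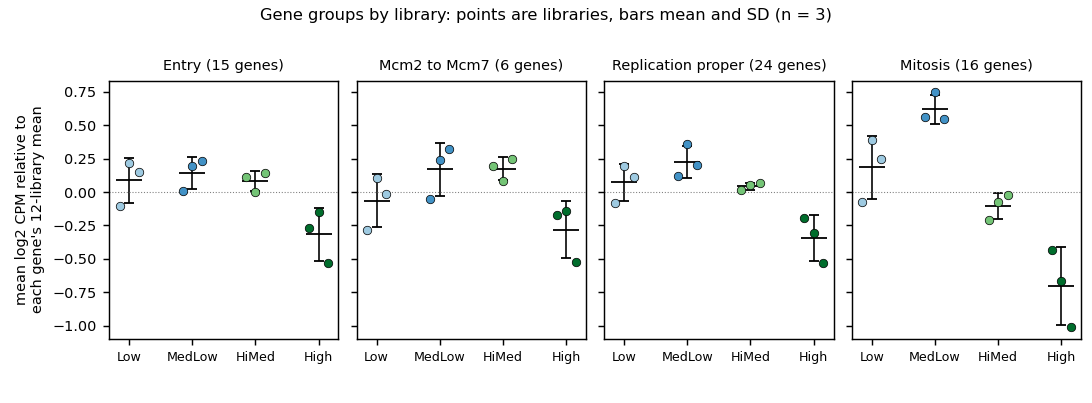
Mean log2 CPM of 4 gene groups relative to each gene's mean over the 12 libraries, with 1 point per library and the mean and SD of each bin as bars. All 4 groups have their lowest mean in High. From MedLow to HiMed the libraries overlap in the entry and MCM groups and do not in replication proper or in the 16 mitosis genes, where the drop is larger.

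Mitosis genes, a list of 16, already fell from MedLow to HiMed. All 16 had their largest mean in MedLow (19.8% of all genes) and their smallest in High (36.4%). From MedLow to HiMed 14 of 16 fell, against 6.30% of all genes, with a median of -0.74. The 6 MCM genes had a median of 0.04 there and 0 calls, where 13.6% of all genes were called. This difference between the lists was not tested. Mki67, the proliferation marker, went from 528 ± 62.0 CPM in Low to 553 ± 42.2, 337 ± 9.85 and 192 ± 29.8 in High (SD, n = 3), and fell by 0.72 from MedLow to HiMed (SE 0.11, adjusted p = 0.000385). Per length, the ratio of Mcm2 to Mki67 TPM was 0.217 ± 0.0207 in Low, 0.249 ± 0.0582 in MedLow, 0.418 ± 0.0205 in HiMed, then 0.619 ± 0.0714 in High. Every HiMed and High library had a ratio above every Low and MedLow library. That of Pcna to Mki67 went from 1.16 ± 0.180 in Low and 1.04 ± 0.0609 in MedLow to 1.58 ± 0.0864 in HiMed, then 2.39 ± 0.532 in High. Cenpe (-1.50) and Ccnb2 (-1.44), a kinetochore motor and a mitotic cyclin, also fell from Low to High, beside Mki67 (-1.46).

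Of the rest of the replication machinery, 43 genes, 14 fell and 0 rose from Low to High, with a median of -0.24. The 14 are 32.6%, against 21.2% of all genes lower, and 20% of all genes were higher. From MedLow to HiMed 3 fell (6.98%), near the 6.30% of all genes. From Low to HiMed 2 rose and 3 fell (11.6% in all), against 12.4% and 11.3% of all genes (23.7% in all). Recql4, a helicase of replication start, went from 14.3 ± 1.97 to 6.82 ± 2.44 CPM (-1.06, SE 0.24, adjusted p = 0.00242). Pold2, a partner of Pold1, went from 29.7 ± 1.1 to 14.7 ± 1.47 (-1.02, SE 0.17, adjusted p = 0.000196). Rnaseh2c, of the enzyme that removes RNA from DNA, went from 25.4 ± 0.985 to 13.6 ± 1.25 (-0.90, SE 0.20, adjusted p = 0.00180).

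Regulators of G1 were called in both directions. Of 22 such genes 9 fell and 4 rose from Low to High, against 21.2% of all genes lower and 20% higher, with a median of -0.16 that turned to 0.03 on the TPM scale. Myc, which drives growth and cell cycle entry, went from 311 ± 39.7 CPM in Low to 335 ± 53.9, 158 ± 39.1 and 47.5 ± 15.2 in High (-2.71, SE 0.27, adjusted p = 2.5e-05). Ccnd1, the cyclin that answers growth signals, went from 284 ± 18.1 to 183 ± 18.8, 133 ± 3.04 and 80.5 ± 2.99 (-1.82, SE 0.08, adjusted p = 2.59e-10). E2f8, a repressor of the E2F family, fell by 1.26, while E2f3, an activator, rose by 0.63 (SE 0.14, adjusted p = 0.00181) and E2f6, a repressor, by 0.68. The call of E2f6 was lost without Low replicate 1 (adjusted p = 0.0724) or High replicate 1 (0.107). Cdk6, a partner of D cyclins, rose by 0.47, a call lost on the TPM scale (limma adjusted p = 0.0553). Of 7 inhibitors of cyclin-dependent kinases 1 rose and 3 fell, too few to set against those shares. Cdkn2b, which blocks Cdk4 and Cdk6, rose from 12.7 ± 3.41 CPM in Low to 19.6 ± 1.59, 32.4 ± 5.28 and 53.5 ± 7.57 in High (2.07, SE 0.19, adjusted p = 5.30e-07). Cdkn1b fell by 0.79, Cdkn2c by 0.78 and Cdkn2d by 0.59, and on the TPM scale the last 2 were not called (limma adjusted p = 0.195 and 0.0515).

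On the deposited per-length scale fewer of the 39 genes were called. Tested with limma on log2(TPM + 1), which understates changes of low genes, 4 genes fell from Low to High, E2f2, Cdt1, Prim1 and Rrm1, and Orc6 rose (0.39, adjusted p = 0.0471), where the counts called 15 lower. On this scale 37.4% of all genes were called from Low to High, 33.9% from MedLow to High and 18.2% from HiMed to High. The median of the set was -0.09 while that of all genes moved to 0.14, and 25 of 39 values were below 0 in place of 35. From MedLow to High 7 genes fell, E2f2, Cdt1, Mcm4, Prim1, Pold1, Rrm1 and Tk1, and from HiMed to High 2, Mcm4 and Uhrf1. The TPM value per CPM on the log2 scale, relative to each gene's mean and taken as the median over genes in a library, went on average over the 3 libraries from -0.10 in Low to 0.14 in High for the 39, and from -0.07 to 0.13 for 13652 tested genes above 0 in every library. Summed TPM of the 39 ran from 659.6 to 780.2 in the Low libraries, 702 to 831 in MedLow, 738 to 831 in HiMed, then 619 to 739 in High. In the summed level the High libraries overlapped with those of every other bin.

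**Figure D5:**
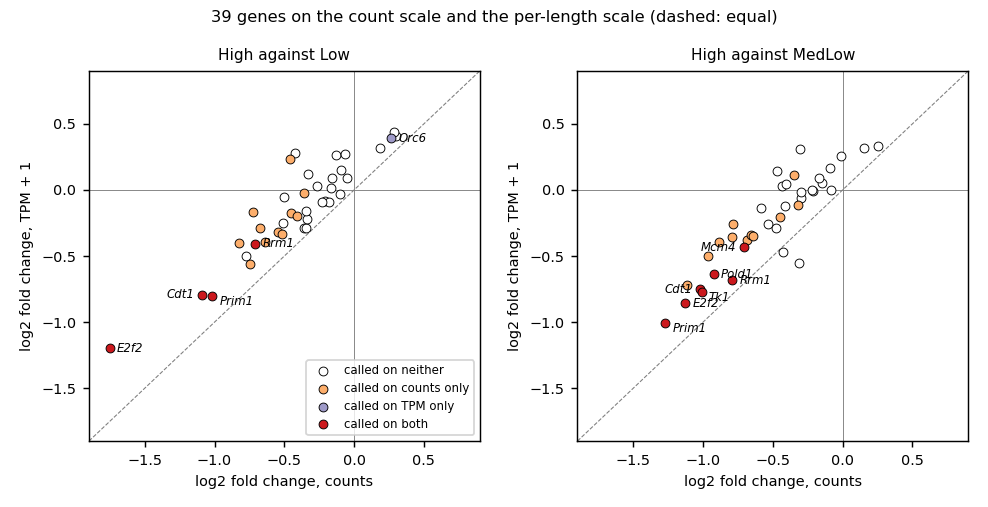
Log2 fold change of each of the 39 genes in the count test (horizontal) and on the TPM + 1 scale (vertical), for High against Low and High against MedLow, coloured by where the gene was called. All 39 points in the panel for Low and 37 in that for MedLow lie above the dashed line of equality, and E2f2, Cdt1, Prim1 and Rrm1 are called lower on both scales in both panels.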

How the data were processed

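Per the submitters' processing notes, the build was mm39 and the tools included Salmon 1.4.0 and DESeq2 1.28.1, with no role given. The expected count values were deposited by the authors as estimated counts per gene symbol that are not all whole (8.24 to 13.0% of values), and the TPM values were deposited by the authors per gene and library as TPM, scaled for length. Counts were rounded, filtered with filterByExpr (minimum count 10, leaving out 35238 genes with 0.034% of counts), scaled by TMM and fitted with edgeR 4.0.16 (R 4.3.3) as a robust quasi-likelihood model with 1 term per bin over all 12 libraries. The 6 pairwise contrasts and a test of any difference were adjusted by Benjamini-Hochberg over 17432 genes.

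Alternatives were DESeq2 1.42.0, library size only, no filter, at least 1 CPM in 3 libraries, a replicate block, limma 3.58.1 on log2(TPM + 1) and log2(TPM + 0.1), each library left out, and Mcm2 to Mcm7 counted as replication genes. Relative levels used log2 CPM with a prior count of 2. Per-library values were given for up to 3 genes per role with the smallest p of any difference. Cdc6 and Mcm6 were added outside that rule, because their values were seen to be highest in HiMed. From each other list, up to 3 called genes per direction from Low to High were named, most with bin means. The 39 genes and all lists were chosen with earlier results of these data known.

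By the text of the series, 1 replicate is 1 pool of animals that was divided among the 4 bins. The replicate numbers were therefore taken to pair the libraries, although the labels do not say so outright. The main test, with 1 term per bin, leaves this pairing out, and so do its SE and adjusted p. Only the replicate block uses it. Of the 18 same-numbered pairs of libraries, correlations of deviations from the bin means over 9650 genes ran from 0.0586 to 0.411, and of the 36 other pairs from -0.321 to 0.101. Nothing says more about the independence of the pools, so p-values measure the spread between these libraries. Replicates differed by far more than counting noise (chi-square per degree of freedom 26.6 to 91.7).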

Additional observations from a re-analysis of the deposited data

How the results depend on the processing

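On the TPM scale the number of the 39 genes called was lower at either pseudocount: 5 for any difference, 5 from Low to High, 7 from MedLow to High, 2 from HiMed to High, 2 from Low to HiMed, 0 from MedLow to HiMed and 0 from Low to MedLow. With 1 library left out, these numbers in the count test ran from 13 to 16, 11 to 17, 14 to 20, 6 to 11, 2 to 4, 2 to 5 and 0 to 1. At TPM + 1 the shares of all genes called in the pairwise comparisons, in the same order, were 37.4, 33.9, 18.2, 18.6, 8.75 and 4.04%. For DESeq2 and the omissions no share of all genes is given beside the numbers. DESeq2 gave 17 for any difference, 16 from Low to High and 11 from HiMed to High. With the replicate block, which uses the pairing, the numbers were 15 for any difference, 15 from Low to High, 18 from MedLow to High and 11 from HiMed to High, and Rfc4 lost its call of any difference while Mcm7 gained one. Over all 17432 genes the block gave 7596, 7352, 6803 and 4188 calls, in place of 7325, 7182, 6603 and 3886.

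The entry median minus the replication median moved from Low to HiMed to 0.21 (TPM + 0.1) and to -0.19 with the MCM genes counted as replication, from MedLow to HiMed to -0.11 with the MCM genes so counted, and from Low to MedLow to -0.083 (TPM + 1). With 1 library left out it ran from 0.0074 to 0.19 from Low to High, from -0.19 to -0.035 from Low to MedLow and from -0.12 to 0.079 from HiMed to High.

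From Low to High, the following log2 values turned positive at TPM + 1 and TPM + 0.1: Ccne1 0.28 and 0.31, Cdc45 0.15 and 0.17, Chaf1a 0.23 and 0.26, Chaf1b 0.017 and 0.021, Gins2 0.12 and 0.13, Mcm10 0.27 and 0.30, Mcm2 0.27 and 0.28, Rfc2 0.030 and 0.031, Rfc3 0.088 and 0.095, and Slbp 0.090 and 0.092. From MedLow to High, Mcm7 turned to 0.11 and 0.11. Over 13652 tested genes the median log2 TPM value per CPM, relative to each gene's mean, also rose from -0.07 in Low to 0.13 in High. The sign of a value on the TPM scale is thus not set against the same 0 as in the counts. With library size only, Mcm10 was 0.017 and Rfc3 0.023. Leaving out 1 library turned the sign of Cdc45 (-0.41 to 0.061), Cdc6 (-0.38 to 0.075), Gins1 (-0.69 to 0.090), Gins4 (-0.040 to 0.39), Mcm10 (-0.20 to 0.10), Mcm3 (-0.28 to 0.066) and Rfc3 (-0.18 to 0.034) from Low to High. Of these, Chaf1a and Mcm7 were called in the count test. Gene folds kept their direction and side of the threshold in 1232 comparisons with an alternative, lost the call in 126, gained it in 12 and turned in 36. The cause was not tested.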
